A study of Mus musculus with 12 samples.

Results

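The genes described here are 10 markers of the endothelial cells that line the vessels of the liver, read from the livers of 12 mice. They were chosen by name, and each symbol matched 1 row, so that all 10 of the 55357 genes in the count table were found. All 10 passed the filter on low counts, which 17358 genes passed. Of the 10, Stab1, Stab2, Clec4g, Lyve1 and Oit3 are typical of the sinusoid, Pecam1, Cdh5, Kdr and Eng are found in endothelium of most vessels, and Vwf is typical of larger vessels.

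The study compared hepatocyte-specific PPARα KO mice with WT mice on chow diet or on CDAHFD, a choline-deficient, high fat diet used to bring about fatty liver disease. The groups were 4 WT chow, 3 WT CDAHFD, 2 KO chow and 3 KO CDAHFD mice, all C57BL/6J males that took their diet for 6 weeks from an age of 7 weeks and were killed at 13 weeks. Both genotypes carried floxed Ppara alleles (PPARafl/fl), with AlbuminCreTg/+ in the KO and AlbuminCre+/+ in the WT mice. The albumin promoter drives Cre in hepatocytes, so the endothelial cells measured here were not the target of the deletion. Messenger RNA of whole liver was sequenced, and in such bulk samples fewer cells of a type and less RNA per cell cannot be told apart. The libraries were treated as separate mice, although the study's methods name 3 mice per group and the second KO chow library is numbered 3 in its label. The p-values measure the spread between these libraries.

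Liver sinusoids are lined by a thin endothelium with open pores and no continuous basement membrane, through which plasma reaches the hepatocytes. These cells clear waste molecules from blood by scavenger receptors such as stabilin-1 and stabilin-2, the products of Stab1 and Stab2. In chronic liver injury sinusoidal endothelium is known to lose its pores and scavenger functions and to take on features of the continuous capillaries of other organs, a change called capillarisation. VEGF signalling through the receptor encoded by Kdr is known to maintain the sinusoidal state.

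Promoter sequences are shown for 4 members, the paralogues Stab1 and Stab2, whose levels moved differently with diet, and Clec4g and Kdr, whose levels fell together. RefSeq promoters of the GRCm38.p6 build were matched for 5 of the 10 members, and each sequence is the 250 bases before the start of transcription, 5′ to 3′ on the gene's strand. Capitals mark 6 letters on either strand. These are AGGAAG, a form of the site bound by ETS family factors of endothelium, or GGGCGG, the core of a GC box.
Stab1, chr14:31168642-31168891, minus strand: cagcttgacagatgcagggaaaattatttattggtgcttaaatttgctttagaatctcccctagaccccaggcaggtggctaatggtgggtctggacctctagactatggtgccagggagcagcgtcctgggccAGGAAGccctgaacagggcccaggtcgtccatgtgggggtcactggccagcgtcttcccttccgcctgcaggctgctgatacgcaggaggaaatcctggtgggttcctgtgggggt
Stab2, chr10:87007943-87008192, minus strand: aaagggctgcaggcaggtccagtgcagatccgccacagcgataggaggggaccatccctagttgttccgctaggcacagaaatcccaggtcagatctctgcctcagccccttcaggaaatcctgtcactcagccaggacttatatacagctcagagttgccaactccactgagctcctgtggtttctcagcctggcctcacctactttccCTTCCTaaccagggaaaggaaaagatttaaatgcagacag
Clec4g, chr8:3720652-3720901, minus strand: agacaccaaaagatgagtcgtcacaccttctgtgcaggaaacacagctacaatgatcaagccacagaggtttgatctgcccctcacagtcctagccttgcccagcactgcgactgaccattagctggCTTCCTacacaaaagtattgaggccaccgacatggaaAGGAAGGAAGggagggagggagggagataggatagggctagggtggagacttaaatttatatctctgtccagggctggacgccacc
Kdr, chr5:75978456-75978705, minus strand: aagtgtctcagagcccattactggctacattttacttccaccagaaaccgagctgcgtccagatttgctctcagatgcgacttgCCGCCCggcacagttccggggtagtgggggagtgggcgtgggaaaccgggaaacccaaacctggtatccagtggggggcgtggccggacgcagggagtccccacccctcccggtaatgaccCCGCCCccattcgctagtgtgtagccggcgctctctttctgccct
AGGAAG occurred 1 time before Stab1, 1 time before Stab2 and 3 times before Clec4g, of which 2 share letters. The GC box occurred 2 times before Kdr, which had no AGGAAG in this window. Other forms of the ETS site were not searched for. Over all 32851 promoter starts of the table, 29.5% held AGGAAG and 32.7% the GC box in the same length. These matches describe letters only and say nothing about binding.

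The libraries held between 29906785 and 43551003 counts each (median 36989922), and a member had between 95 and 5073 counts in a library. Levels are given as CPM, counts set against the size of the library after scaling with the TMM method. Ppara ran from 96.2 to 237.8 CPM in WT chow and from 59.5 to 75.5 in WT CDAHFD, and from 14.4 to 38.7 in KO chow and 20.7 to 51.9 in KO CDAHFD, so that the genotypes did not overlap on either diet. The 8 hepatocyte markers summed to between 40510 and 101800 CPM in every library, and 8 of 8 were lower in both CDAHFD groups than in WT chow. In 4 libraries, WT chow replicates 3 and 4, KO chow replicate 2 and KO CDAHFD replicate 3, the circadian output gene Dbp lay between 44.8 and 130 CPM, against 0.388 to 3.75 in the other 8, while the clock gene Arntl lay between 2.88 and 15.4 against 25.5 to 48.6. These 4 libraries were spread over 3 groups, WT CDAHFD had none, and counts of members called are also given without them, where KO chow is left with 1 library that is assumed to vary like the others. Counts of members whose libraries did not overlap use all libraries. WT chow replicate 1 stood apart from the rest of its group in single genes such as Acta2 and Ccl21a, with values given at Vwf. The sum of 6 lymphatic markers did not stand apart, at 274.2 CPM there within a WT chow range of 206.9 to 288.4. Without this library the calls against WT chow were 5 in WT CDAHFD, 4 in KO CDAHFD and 1 in KO chow.

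On CDAHFD, Kdr, Oit3, Clec4g and Cdh5 were lower than in WT chow and Stab1 was higher, in WT as in KO mice, while Stab2 and Eng lay near their WT chow levels, although with library size as the only scaling the 4 falls were not past the threshold and Cdh5 in KO CDAHFD stood at 0.03. In KO chow, Lyve1 was the member past the threshold, and it was higher. A gene was called at a Benjamini-Hochberg adjusted p under 0.05 over all genes tested, from edgeR's quasi-likelihood test. In WT CDAHFD against WT chow 5 of the 10 members were called, 1 higher and 4 lower, where 51.1% of all genes were called, 26.1% higher and 25.0% lower. The libraries of these groups did not overlap for 1 member that was higher and 4 that were lower, as for 28.0% and 27.4% of all genes. The share of members called was near that of all genes, and what follows describes which members moved and by how much.

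**Figure D1:**
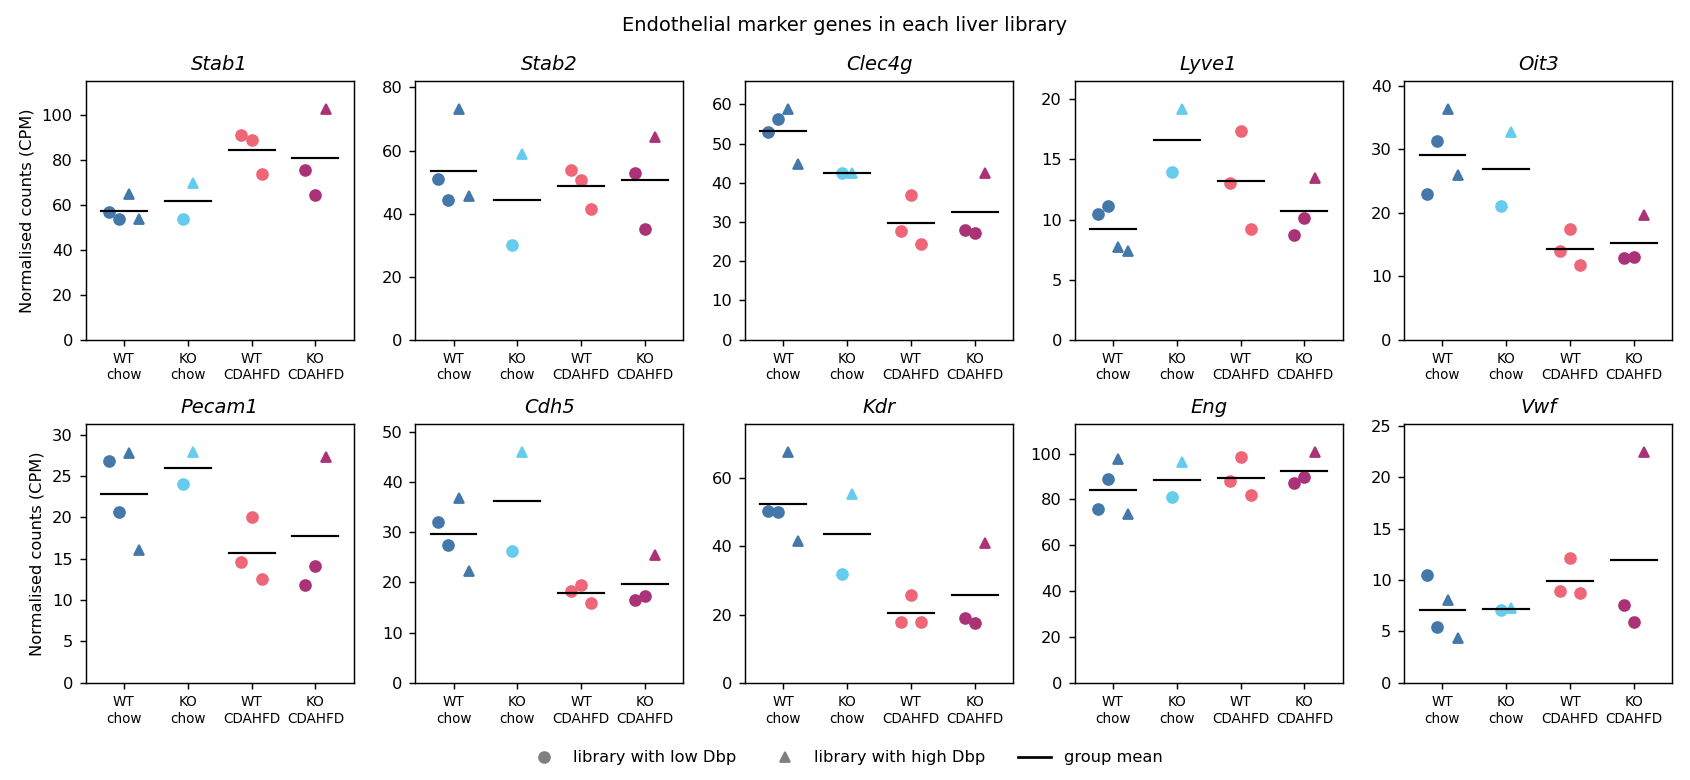
Normalised counts (CPM, vertical axes from 0) of the 10 endothelial markers in each of the 12 libraries, with a line at each group's mean and triangles for the 4 libraries with high Dbp. Kdr lay between 41.5 and 67.8 CPM in WT chow and between 17.7 and 25.65 in WT CDAHFD, and Eng lay between 73.4 and 100.7 in all libraries.

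Stab1 (ENSMUSG00000042286, chromosome 14 from 31139013 to 31168641, minus strand, GRCm38) encodes stabilin-1, a scavenger receptor also found on tissue macrophages. It was at 56.7, 53.7, 64.9 and 53.4 CPM in WT chow, 91.0, 88.7 and 73.6 in WT CDAHFD, 53.55 and 69.65 in KO chow and 75.3, 64.4 and 102.7 in KO CDAHFD. Every WT CDAHFD library lay above every WT chow library, and KO CDAHFD replicate 2 lay just below the highest WT chow library. The log2 fold change of Stab1 was 0.56 (SE 0.16, edgeR adjusted p = 0.00951) in WT CDAHFD and 0.50 (SE 0.16, edgeR adjusted p = 0.0175) in KO CDAHFD against WT chow. The rise in KO CDAHFD rested on replicate 3, without which it was 0.29 (edgeR adjusted p = 0.114), and it was 0.34 (edgeR adjusted p = 0.0638) without the 4 libraries with high Dbp. Libraries were not read by strand, and Nt5dc2, which overlaps Stab1 on the other strand, held 14.251% as many counts. Of 8 monocyte and macrophage markers, 8 rose in WT CDAHFD and 8 in KO CDAHFD, from a summed 66.1 to 159.9 CPM in WT chow to between 1519 and 2192 in WT CDAHFD and between 1635 and 1754 in KO CDAHFD. The part of macrophages in the Stab1 level was not tested.

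Stab2 (ENSMUSG00000035459, chromosome 10 from 86841198 to 87008025, minus strand) encodes stabilin-2, which clears hyaluronan from blood. It was at 50.9, 44.4, 73.3 and 45.5 CPM in WT chow, 53.7, 50.8 and 41.5 in WT CDAHFD, 30.1 and 58.8 in KO chow and 52.8, 35.1 and 64.4 in KO CDAHFD. All 4 groups overlapped. Against WT chow its log2 fold change was -0.27 (SE 0.29) in KO chow, -0.14 (SE 0.25) in WT CDAHFD and -0.08 (SE 0.25) in KO CDAHFD, none past the threshold, and with library size as the only scaling all 3 were positive (0.13, 0.42 and 0.55).

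The log2 ratio of Stab1 to Stab2 within a library does not depend on how libraries are scaled, and this and the other ratios of 2 genes were chosen after the values were seen. It was between -0.17 and 0.27 in WT chow, between 0.76 and 0.83 in WT CDAHFD, at 0.83 and 0.24 in KO chow and between 0.51 and 0.87 in KO CDAHFD. Every CDAHFD library lay above every WT chow library, and KO chow had a library at either level.

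Clec4g (ENSMUSG00000074491, chromosome 8 from 3707064 to 3720651, minus strand) encodes LSECtin, a C-type lectin of sinusoidal endothelium. It was at 53.1, 56.2, 58.9 and 44.9 CPM in WT chow, 27.6, 36.8 and 24.5 in WT CDAHFD, 42.4 and 42.4 in KO chow and 27.8, 27.2 and 42.6 in KO CDAHFD. The levels on CDAHFD lay below all of WT chow in both genotypes, and so did the KO chow pair, though by less. Its log2 fold change was -0.85 (SE 0.18, edgeR adjusted p = 0.00169) in WT CDAHFD, -0.71 (SE 0.18, edgeR adjusted p = 0.00484) in KO CDAHFD and -0.33 (SE 0.20, edgeR adjusted p = 0.219) in KO chow.

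Oit3 (ENSMUSG00000009654, chromosome 10 from 59422958 to 59441778, minus strand) encodes a secreted zona pellucida domain protein, used as a marker of these cells. It was at 23.0, 31.3, 36.4 and 26.0 CPM in WT chow, 13.99, 17.38 and 11.71 in WT CDAHFD, 21.0 and 32.8 in KO chow and 12.80, 13.02 and 19.69 in KO CDAHFD. Both CDAHFD groups lay below WT chow and KO chow overlapped it. The log2 fold change of Oit3 was -1.02 (SE 0.22, edgeR adjusted p = 0.00201) in WT CDAHFD and -0.94 (SE 0.22, edgeR adjusted p = 0.00321) in KO CDAHFD. Its log2 ratio to Stab2 lay between -1.15 and -0.50 in WT chow, between -1.94 and -1.54 in WT CDAHFD and between -2.04 and -1.43 in KO CDAHFD, with KO chow at -0.52 and -0.84.

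Lyve1 (ENSMUSG00000030787, chromosome 7 from 110850607 to 110863239, minus strand) encodes a hyaluronan receptor of sinusoidal and lymphatic endothelium, also found on some macrophages. It was at 10.5, 11.1, 7.70 and 7.38 CPM in WT chow, 13.98 and 19.23 in the KO chow pair, 13.01, 17.38 and 9.18 in WT CDAHFD and 8.68, 10.1 and 13.4 in KO CDAHFD. The KO chow pair lay above all of WT chow, and the CDAHFD groups overlapped WT chow. In KO chow against WT chow 1 of the 10 members was called, where 39.0% of all genes were called, and this was Lyve1 with a log2 fold change of 0.85 (SE 0.26, edgeR adjusted p = 0.0198). The call was lost without WT chow replicate 3 (0.79, edgeR adjusted p = 0.0518), without WT chow replicate 4 (0.77, edgeR adjusted p = 0.0521), without KO chow replicate 2 (0.61, edgeR adjusted p = 0.185) and without the 4 libraries with high Dbp (0.37, edgeR adjusted p = 0.395). WT chow replicates 3 and 4, at 7.70 and 7.38 CPM, are those with high Dbp. Among 6 lymphatic markers, 2 rose in KO chow, with a median log2 fold change of 0.94 over the 6. Their sum was between 206.9 and 288.4 CPM in WT chow and between 215.2 and 312.5 in KO chow, with none at 0. Prox1, Reln and Itga9 held 55538, 42266 and 17606 counts over all libraries, against 994 for Ccl21a. The sum follows these abundant genes and says little about the scarce markers. Of 6 Kupffer cell markers 4 rose in KO chow, from a sum of 247.7 to 431.1 CPM to 745.2 and 988.9. Their part in the Lyve1 level was not tested.

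Kdr (ENSMUSG00000062960, chromosome 5 from 75932827 to 75978458, minus strand) encodes VEGF receptor 2, the main signalling receptor for VEGF-A. It was at 50.4, 50.2, 67.8 and 41.5 CPM in WT chow, 17.7, 25.65 and 17.9 in WT CDAHFD, 32.0 and 55.4 in KO chow and 18.9, 17.6 and 40.9 in KO CDAHFD. WT CDAHFD lay far below WT chow, and in KO CDAHFD replicate 3 lay just under the lowest of WT chow while the others were as low as WT CDAHFD. Its log2 fold change of -1.36 (SE 0.30, edgeR adjusted p = 0.00238) in WT CDAHFD was the largest among the members. In KO CDAHFD it was -1.02 (SE 0.30, edgeR adjusted p = 0.0119), with -1.52 without replicate 3, and the call was lost without replicate 1 (-0.84, edgeR adjusted p = 0.0581) or replicate 2 (-0.81, edgeR adjusted p = 0.057). In KO chow it was -0.26 (SE 0.33, edgeR adjusted p = 0.567), and -0.65 (edgeR adjusted p = 0.0481) without the 4 libraries with high Dbp.

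Cdh5 (ENSMUSG00000031871, chromosome 8 from 104101625 to 104144511, plus strand) encodes VE-cadherin, the adhesion molecule of endothelial junctions. It was at 32.0, 27.4, 36.9 and 22.2 CPM in WT chow, 18.3, 19.4 and 15.8 in WT CDAHFD, 26.3 and 46.0 in KO chow and 16.5, 17.2 and 25.4 in KO CDAHFD. WT CDAHFD lay below WT chow, while KO CDAHFD overlapped it through replicate 3. The log2 fold change of Cdh5 was -0.73 (SE 0.22, edgeR adjusted p = 0.0149) in WT CDAHFD and -0.59 (SE 0.22, edgeR adjusted p = 0.0403) in KO CDAHFD. The first call was lost without WT chow replicate 3 (edgeR adjusted p = 0.0548) or WT CDAHFD replicate 3 (edgeR adjusted p = 0.0606). The second was lost when any of WT chow replicates 1, 2 or 3, WT CDAHFD replicates 1 or 2 or KO CDAHFD replicates 1 or 2 was left out, where its value ran from -0.59 to -0.43. Without the 4 libraries with high Dbp the values were -0.73 and -0.82, both called (edgeR adjusted p = 0.000983 and 0.00119).

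Pecam1 (ENSMUSG00000020717, chromosome 11 from 106654217 to 106750628, minus strand) encodes CD31, an adhesion molecule shared by endothelium, platelets and leukocytes. It ran from 16.1 to 27.7 CPM in WT chow, 12.5 to 20 in WT CDAHFD, 24.1 to 27.9 in KO chow and 11.9 to 27.3 in KO CDAHFD. Its log2 fold change was -0.54 (SE 0.28, edgeR adjusted p = 0.123) in WT CDAHFD and -0.37 (SE 0.28, edgeR adjusted p = 0.291) in KO CDAHFD. Without KO CDAHFD replicate 3 it passed the threshold in both, at -0.54 (edgeR adjusted p = 0.0429) and -0.82 (edgeR adjusted p = 0.0146), and it passed in both without the 4 libraries with high Dbp.

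Eng (ENSMUSG00000026814, chromosome 2 from 32646595 to 32682669, plus strand) encodes endoglin, a co-receptor for BMP9 and TGF-beta. It ran from 73.4 to 97.5 CPM in WT chow, 81.9 to 98.5 in WT CDAHFD, 81.0 to 96.3 in KO chow and 87.0 to 100.7 in KO CDAHFD. The groups overlapped throughout, with log2 fold changes of 0.09 (SE 0.12) in WT CDAHFD, 0.14 (SE 0.12) in KO CDAHFD and 0.08 (SE 0.14) in KO chow. Fpgs overlaps Eng on the other strand over 61 exon bases and held 154.767% as many counts as Eng, so a part of these counts could be of either gene. With library size as the only scaling Eng was called higher in all 3 groups, at 0.48, 0.65 and 0.75, where the median of all genes stood at 0.404, 0.51 and 0.571.

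Vwf (ENSMUSG00000001930, chromosome 6 from 125546774 to 125686679, plus strand) encodes von Willebrand factor, which tethers platelets and is stored in endothelium of larger vessels and in platelets. It was at 10.5, 5.38, 8.07 and 4.36 CPM in WT chow, 8.93, 12.1 and 8.76 in WT CDAHFD, 7.07 and 7.23 in KO chow and 7.52, 5.94 and 22.45 in KO CDAHFD. All groups overlapped WT chow, and KO CDAHFD replicate 3 was the highest of the 12. The log2 fold change of 0.76 (SE 0.40, edgeR adjusted p = 0.135) in KO CDAHFD turned to -0.08 (edgeR adjusted p = 0.858) without replicate 3 and became 1.08 (edgeR adjusted p = 0.04) without replicate 2. In WT CDAHFD it was 0.49 (SE 0.41, edgeR adjusted p = 0.339), and leaving out WT chow replicate 1 gave 0.76, which did not pass either. Of 6 platelet markers, 5 were tested and 1 rose in each CDAHFD group, with a sum of 7.70 to 11.2 CPM in WT chow, against 12.4 to 13.7 in the WT and 11.4 to 13.4 in the KO mice on CDAHFD, and Gp9 was at 0 in some libraries of WT chow and KO CDAHFD. In WT chow replicate 1, where Vwf was highest in its group, the smooth muscle actin gene Acta2 was at 31.9 CPM against 1.27 to 1.48 in the other 3 libraries, and the lymphatic chemokine gene Ccl21a at 4.89 against 0.184 to 0.881, both apart by Dixon's test. The part of larger vessels in these libraries was not tested.

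**Figure D2:**
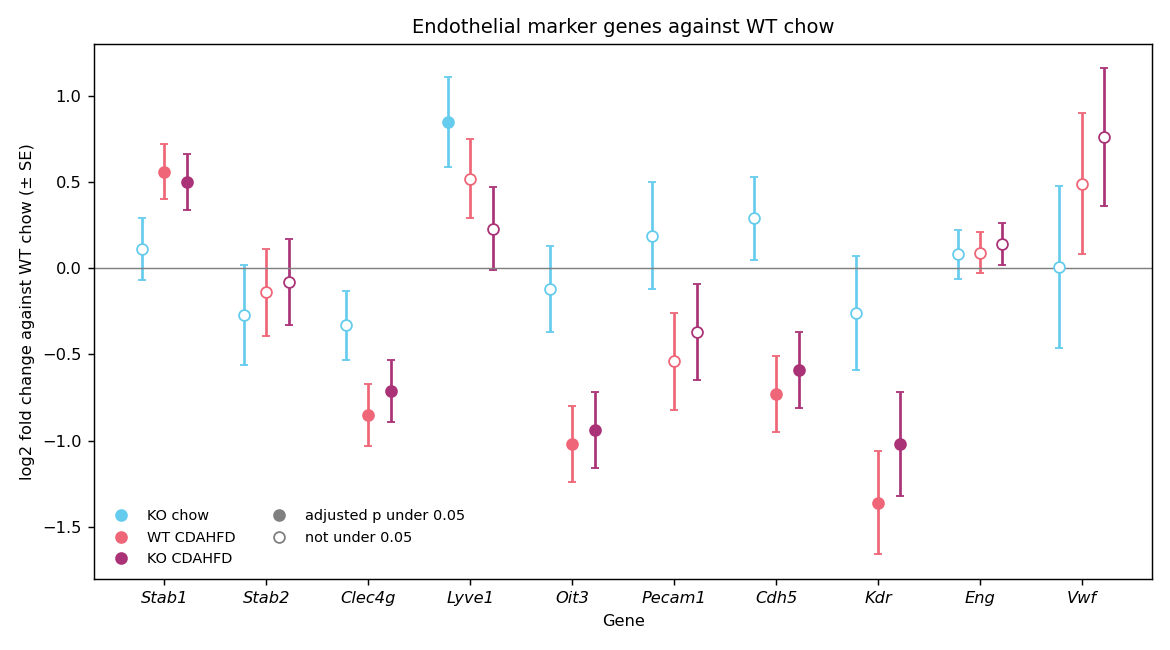
Log2 fold change against WT chow with its SE (vertical axis) of each member in the 3 other groups, filled where the edgeR adjusted p was under 0.05. Kdr, Oit3, Clec4g and Cdh5 are filled below 0 and Stab1 above 0 in both CDAHFD groups, and Lyve1 is filled in KO chow, at 0.85, while with library size as the only scaling Cdh5 in KO CDAHFD stood at 0.03.

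In KO CDAHFD against WT chow 5 of 10 members were called (1 higher, 4 lower), where 52.4% of all genes were called, 26.9% higher and 25.4% lower. The median log2 fold change of the 10 members was -0.34 in WT CDAHFD, -0.22 in KO CDAHFD and 0.04 in KO chow, against -0.0478, -0.0397 and 0.00217 over all genes tested. Without the 4 libraries with high Dbp the calls against WT chow were 1 higher and 5 lower in WT CDAHFD, 5 lower in KO CDAHFD and 1 lower in KO chow, which was Kdr. DESeq2 called 5 members in WT CDAHFD, 5 in KO CDAHFD and 1 in KO chow. Over all 17358 genes it called 8996, 9161 and 7247. These 3 comparisons share the WT chow libraries. The scaling mattered for direction: with library size as the only scaling Kdr, Clec4g, Oit3 and Cdh5 in WT CDAHFD stood at -0.80, -0.29, -0.46 and -0.18, none past the threshold, and Cdh5 in KO CDAHFD at 0.03, while the median of all genes stood at 0.51 and 0.571 in these groups. Relative to that median all 4 remained lower.

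Between the genotypes on CDAHFD no member was called, of the 0.357% of all genes that were. None had an unadjusted p under 0.05, DESeq2 called 0, and edgeR called 0 without the 4 libraries with high Dbp. The log2 fold changes of KO CDAHFD against WT CDAHFD ran from -0.30 for Lyve1 to 0.34 for Kdr, and all members overlapped. In KO CDAHFD against KO chow edgeR called 6.19% of all genes and DESeq2 called 1903 of 17358. Of the 10 members edgeR called 0, 4 had an unadjusted p under 0.05, and DESeq2 called 2. The 2 lowest values there were -0.87 for Cdh5 (edgeR adjusted p = 0.065) and -0.83 for Oit3 (edgeR adjusted p = 0.0789), 2 members were called with the clock gene score as a covariate, and 0 without the 4 libraries with high Dbp. In KO chow against WT CDAHFD edgeR called 1 member, where it called 6.12% of all genes. This was Cdh5, higher in KO chow by 1.02 (SE 0.26, edgeR adjusted p = 0.0369), a call lost without WT chow replicate 2, without any of the 3 WT CDAHFD libraries, or without KO chow replicate 2, where the value was 0.56. Without the 4 libraries with high Dbp 1 member was called higher and 1 lower. Kdr stood at 1.10 (edgeR adjusted p = 0.0779) and Oit3 at 0.90 (edgeR adjusted p = 0.0557) in the same comparison.

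The interaction of genotype and diet was called for 1 of 10 members, where 23.1% of all genes were called. For Lyve1 the effect of diet in KO mice was lower than in WT mice by 1.15 on the log2 scale (log2 difference -1.15, SE 0.36, edgeR adjusted p = 0.0362). This call was lost in 7 of 12 fits that each left out a library, with values from -1.36 to -0.90, and it was -0.86 (edgeR adjusted p = 0.152) without the 4 libraries with high Dbp. The other 9 members had interactions between -0.17 and 0.60, which did not pass the threshold.

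Within a library, Kdr fell relative to Eng. Their log2 ratio was between -0.82 and -0.52 in WT chow, at -1.34 and -0.80 in KO chow, between -2.31 and -1.94 in WT CDAHFD and between -2.34 and -1.30 in KO CDAHFD. Every CDAHFD library lay below every WT chow library, and the limit on Eng counts given above applies here too. Not every pair split this way. The log2 ratio of Kdr to Cdh5 was between 0.65 and 0.90 in WT chow and at 0.28 and 0.27 in KO chow. It was between -0.05 and 0.40 in WT CDAHFD and between 0.04 and 0.69 in KO CDAHFD, which overlapped WT chow. Ratios of other genes were not computed as a background. The log2 ratio of Stab1 to Kdr had means of 0.14 ± 0.18 (SD, n = 4) in WT chow, 0.54 ± 0.29 (SD, n = 2) in KO chow, 2.06 ± 0.28 (SD, n = 3) in WT CDAHFD and 1.73 ± 0.35 (SD, n = 3) in KO CDAHFD. Over the members other than Vwf, the mean log2 CPM of the 5 sinusoidal genes minus that of Pecam1, Cdh5, Kdr and Eng was -0.29 ± 0.13 (SD, n = 4) in WT chow, -0.32 ± 0.02 (SD, n = 2) in KO chow, 0.14 ± 0.10 (SD, n = 3) in WT CDAHFD and -0.01 ± 0.14 (SD, n = 3) in KO CDAHFD. All libraries of the CDAHFD groups lay above all of WT chow in this score, though KO CDAHFD replicate 3 did so narrowly, at -0.13 against -0.15.

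**Figure D3:**
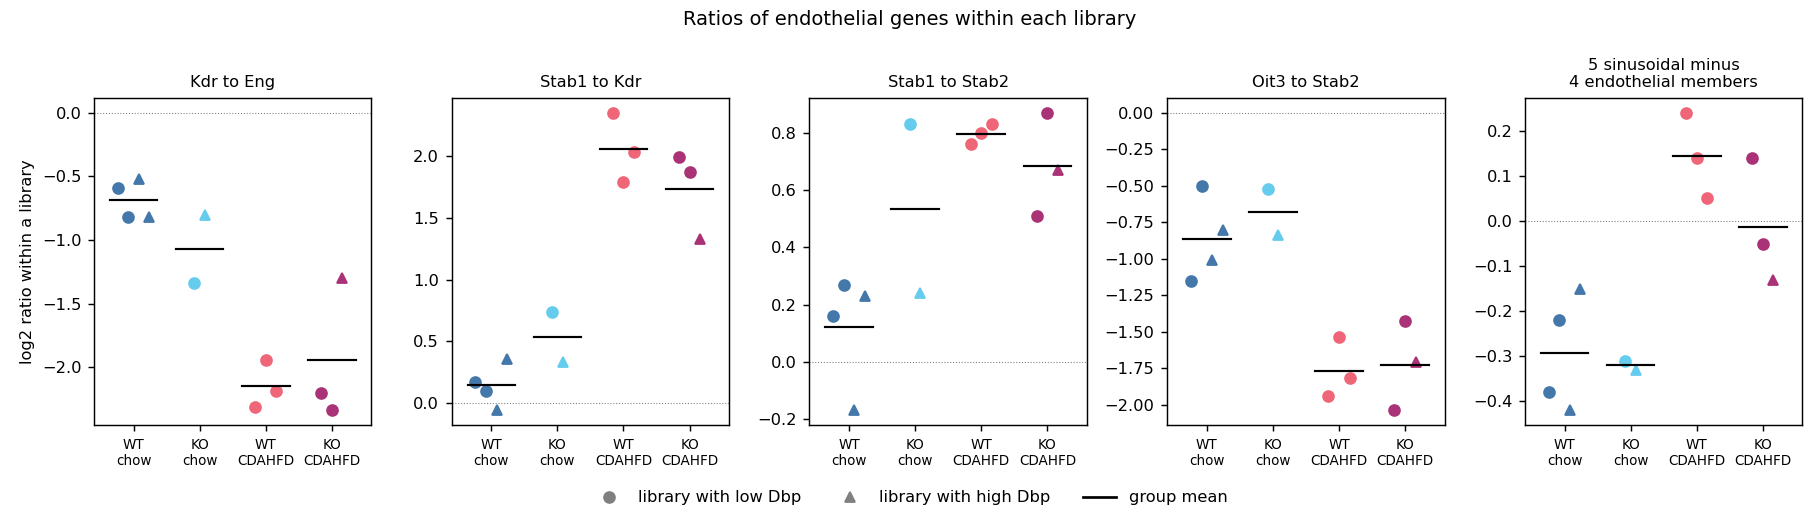
Log2 ratios of member levels within each library (vertical axes) in the 4 groups, with lines at the group means and triangles for the 4 libraries with high Dbp. The ratio of Stab1 to Kdr is between -0.06 and 0.36 in WT chow and between 1.33 and 2.35 in the CDAHFD libraries.

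The order of the members was compared per kilobase of exon, with the union of a gene's exons as its length. In WT chow Clec4g stood at 21.6 ± 2.46 CPM per kilobase (SD, n = 4) and Eng at 20.7 ± 2.78, which did not differ beyond their spread, although with the longest transcript as the length Clec4g (31.1 to 40.8) lay above Eng (21.5 to 28.5). Oit3 followed at 10.5 ± 2.13, below both in every library, and then Cdh5 at 7.05 ± 1.49, Stab2 at 6.11 ± 1.54, Kdr at 5.81 ± 1.22 and Stab1 at 5.56 ± 0.521, whose ranges overlapped from each to the next. Pecam1 at 3.67 ± 0.880 and Lyve1 at 3.14 ± 0.651 overlapped below these, and Vwf was lowest at 0.441 ± 0.173. In WT CDAHFD Eng stood first at 22.1 ± 2.08 (SD, n = 3), apart from Clec4g at 12.04 ± 2.61, where with the longest transcript their ranges overlapped (23.9 to 28.8 and 17.0 to 25.6). Stab1 followed at 8.21 ± 0.918, apart from Stab2 at 5.56 ± 0.728. Kdr came next to last at 2.263 ± 0.5002, below Pecam1 at 2.52 ± 0.620, with overlapping ranges. KO chow had Eng first at 21.9 ± 2.66 (SD, n = 2), with Clec4g at 17.2 in both libraries, and Lyve1 at 5.69 ± 1.27. With the longest transcript Clec4g came first in KO chow, at 29.4 in both libraries, above Eng at 23.7 to 28.1, so the order of these 2 genes depends on the length used. KO CDAHFD had the same first 5 genes in order as WT CDAHFD, with Eng at 22.8 ± 1.80 (SD, n = 3) and Kdr at 2.86 ± 1.45.

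The members also moved together among libraries of the same group. After the group means were taken away, Pearson's r over the 12 libraries was positive for all 45 pairs, from 0.323 for Stab2 and Lyve1 to 0.931 for Oit3 and Eng, with a median of 0.753. These libraries share their scaling factors, and the 2 KO chow libraries mirror each other around their mean, so r is a description. It was not computed between other genes as a background, so a shift shared by many genes cannot be told apart. In KO CDAHFD replicate 3 all 10 members lay above their group means, by 0.51 on the log2 scale on average, and in WT chow replicate 4 none did. Both are libraries with high Dbp. Of the other 2 with high Dbp, WT chow replicate 3 had 9 of 10 members above the group mean (0.25 on average) and KO chow replicate 2 had 9 of 10 (0.23), so that 3 of these 4 libraries were shifted up. Among libraries without high Dbp, WT CDAHFD replicate 2 had all 10 above (0.25). In the same KO CDAHFD library the Kupffer cell gene Clec4f was at 34.1 CPM against 130.2 and 139.9 in the other 2 of its group. Over 12904 genes whose mean reached 50 counts, the likeness by the same r was highest for Tie1 (0.994), Erg (0.976) and Mmrn2 (0.976) with Kdr, and for Podxl (0.992), Flt1 (0.975) and Tek (0.970) with Pecam1. The genes named for each member were picked for the highest r of so many, so their values run high by that choice. Stab1 was most like Nrp2 (0.972), Dgkh (0.965) and Brox (0.964), and Stab2 most like Peak1 (0.975), Ammecr1 (0.969) and Soga1 (0.965). For Clec4g the genes were Adgrl4 (0.954), Btnl9 (0.941) and Cldn5 (0.937), for Oit3 F8 (0.965), Bmp6 (0.963) and Samd5 (0.958), and for Eng Bmp6 (0.963), Cnr2 (0.938) and Oit3 (0.931). Cdh5 was most like Maf (0.973), C1qtnf1 (0.954) and Rbpj (0.953), Lyve1 most like Gramd1b (0.960), Fam174b (0.920) and Vps50 (0.912), and Vwf most like Gimap4 (0.976), Adamtsl1 (0.964) and Ttll7 (0.963).

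Other genes of sinusoidal endothelium were read from a list of 20. In WT CDAHFD 3 rose and 6 fell, with a median log2 fold change of -0.36 over the list, in KO CDAHFD 3 rose and 6 fell (-0.26), and in KO chow 2 rose and 2 fell (-0.03). Over all genes 22.0% rose and 17.0% fell in KO chow, against 26.1% and 25.0% for WT CDAHFD and 26.9% and 25.4% for KO CDAHFD, and these shares apply to the lists that follow too. With library size as the only scaling the balance in this list turned, to 7 rising and 4 falling in WT CDAHFD (median 0.19), 6 and 1 in KO CDAHFD (0.36) and 6 and 1 in KO chow (0.36). The balance over all 17358 genes turned with it, to 9092 rising and 1170 falling in WT CDAHFD. It was 9775 and 1095 in KO CDAHFD and 7037 and 1149 in KO chow. With TMM scaling the largest falls of this list in WT CDAHFD were in Dnase1l3, a secreted DNase, at -1.42 (SE 0.25, edgeR adjusted p = 0.000407) and Ehd3, an endocytic ATPase, at -1.23 (SE 0.18, edgeR adjusted p = 8.29e-05). Ehd3 was at 67.9, 91.0, 96.9 and 63.5 CPM in WT chow, 36.1, 36.3 and 30.02 in WT CDAHFD, 32.1 and 48.6 in KO chow and 32.9, 32.9 and 34.9 in KO CDAHFD. It fell in all 3 groups, with a log2 fold change of -0.98 (SE 0.20, edgeR adjusted p = 0.00194) in KO chow, and the groups did not overlap WT chow. Gata4, the transcription factor that specifies sinusoidal endothelium, fell in KO chow at -0.54 (SE 0.14, edgeR adjusted p = 0.00824), a call lost with library size as the only scaling (-0.14, edgeR adjusted p = 0.487) and without KO chow replicate 1 (-0.44, edgeR adjusted p = 0.106). Gata4 stood at -0.26 (edgeR adjusted p = 0.0917) in WT CDAHFD and -0.35 (edgeR adjusted p = 0.0263) in KO CDAHFD. Clec1b, a receptor for podoplanin, rose in KO chow (log2 fold change 1.2, SE 0.17, edgeR adjusted p = 0.000162) and in WT CDAHFD (0.80, SE 0.16, edgeR adjusted p = 0.00105). In KO CDAHFD it rose by 0.67 (SE 0.16, edgeR adjusted p = 0.00345). Clec9a, which overlaps Clec1b, held 27.462% as many counts. Of 6 Kupffer cell markers 4 rose in KO chow, and 2 rose and 1 fell in each CDAHFD group. Their part in the Clec1b level was not tested. Rspo3, which strengthens Wnt signalling to hepatocytes, rose in KO chow at 0.65 (SE 0.19, edgeR adjusted p = 0.0176), a call lost without either KO chow library (0.64 and 0.67, edgeR adjusted p = 0.0891 and 0.0641) and without the 4 libraries with high Dbp (0.54, edgeR adjusted p = 0.152). On CDAHFD Rspo3 rose too, at 0.62 (SE 0.17, edgeR adjusted p = 0.00941) in WT and 0.85 (SE 0.17, edgeR adjusted p = 0.00113) in KO mice. Thbd, the thrombin receptor thrombomodulin, rose in WT CDAHFD at 1.10 (SE 0.33, edgeR adjusted p = 0.0145), and this was lost without WT CDAHFD replicate 1 (1.02, edgeR adjusted p = 0.0504) or replicate 2 (0.87, edgeR adjusted p = 0.0749). It stood at 0.97 (edgeR adjusted p = 0.0276) in KO CDAHFD and 0.85 (edgeR adjusted p = 0.0888) in KO chow.

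Of 20 other genes found across endothelium, 2 rose and 12 fell in WT CDAHFD, 3 rose and 6 fell in KO CDAHFD, and 3 rose and 1 fell in KO chow. The median log2 fold changes of the list were -0.59, -0.41 and 0.00. With library size as the only scaling 3 rose and 1 fell in WT CDAHFD, and 5 rose and none fell in KO CDAHFD, so the balance of directions depends on the scaling. The counts over all genes given above for this scaling apply here too. Without the 4 libraries with high Dbp 13 fell and 2 rose in each CDAHFD group, and 1 rose and 2 fell in KO chow. Tek, the receptor of the angiopoietins, was at -1.14 (SE 0.32, edgeR adjusted p = 0.00936) and S1pr1, a sphingosine 1-phosphate receptor of endothelial barriers, at -1.41 (SE 0.22, edgeR adjusted p = 0.000152) in WT CDAHFD. The call for Tek was lost with library size as the only scaling (-0.59, edgeR adjusted p = 0.16). S1pr1 fell in KO chow too, at -0.92 (SE 0.25, edgeR adjusted p = 0.00974), though not past the threshold without KO chow replicate 1 (-0.91, edgeR adjusted p = 0.0692) or replicate 2 (-0.93, edgeR adjusted p = 0.0551), or with library size as the only scaling (-0.53, edgeR adjusted p = 0.0999). Cd93, which is also made by myeloid cells, went the other way. It was at 8.70, 6.20, 7.30 and 3.62 CPM in WT chow, 35.5, 42.2 and 28.4 in WT CDAHFD, 13.1 and 19.0 in KO chow and 23.4, 25.4 and 40.3 in KO CDAHFD, with log2 fold changes of 2.45 (SE 0.27, edgeR adjusted p = 1.01e-05) in WT CDAHFD and 1.31 (SE 0.30, edgeR adjusted p = 0.00392) in KO chow, the latter lost without KO chow replicate 2 (1.02, edgeR adjusted p = 0.0556). The myeloid markers given above rose in the same groups, and their part in Cd93 was not tested. Ecscr, a regulator of endothelial migration, rose by 0.91 (SE 0.19, edgeR adjusted p = 0.0026) in KO chow and 0.78 (SE 0.17, edgeR adjusted p = 0.0024) in WT CDAHFD, the first lost without the 4 libraries with high Dbp (0.61, edgeR adjusted p = 0.0897).

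In a list of 20 genes of continuous capillaries and larger vessels, 19 were tested, and 8 rose in KO chow, 8 rose and 1 fell in WT CDAHFD, and 8 rose in KO CDAHFD. The median log2 fold changes were 0.78, 0.66 and 0.73. Without the 4 libraries with high Dbp 7 rose in KO chow (median 0.65), while 6 rose and 2 fell in WT CDAHFD (0.29) and in KO CDAHFD (0.20). Vcam1, an adhesion molecule for leukocytes that stellate and other cells also make, was at 14.7, 7.84, 10.7 and 9.31 CPM in WT chow, 83.8 and 91.0 in the KO chow pair, 68.2, 65.4 and 54.8 in WT CDAHFD and 62.0, 64.3 and 65.5 in KO CDAHFD. Its log2 fold change was 3.04 (SE 0.18, edgeR adjusted p = 1.84e-07) in KO chow and 2.56 (SE 0.17, edgeR adjusted p = 1.56e-07) in WT CDAHFD. Sele, which encodes the E-selectin of activated endothelium, had 0 to 3 counts in the WT chow libraries (5 in all), 71 and 92 in the KO chow pair, and on CDAHFD 93 to 101 in WT and 50 to 69 in KO mice. It was called in all 3 groups (highest edgeR adjusted p = 2.65e-06, in KO chow), and no fold change is given because WT chow was so close to 0. Sox17, a transcription factor of arterial endothelium, fell in WT CDAHFD at -0.79 (SE 0.20, edgeR adjusted p = 0.00596), a call lost with library size as the only scaling (-0.23, edgeR adjusted p = 0.346). Stellate cell markers moved in the same groups, with 4 of 8 rising in WT CDAHFD, 6 in KO CDAHFD and 5 in KO chow, from a sum of 90.6 to 181.0 CPM in WT chow to between 780.1 and 1508 in the other groups, and their part in these levels was not tested.

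A further list held 20 genes of signalling to endothelium, mostly ligands and receptors, with Id1 and Smad6 as neither. Of these 8 rose and 2 fell in KO chow, and 11 rose and 4 fell in each CDAHFD group, with medians of 0.61, 0.89 and 0.92. Vegfa, the ligand of the Kdr receptor and made largely by hepatocytes, was at 176.4, 188.8, 217.3 and 219.7 CPM in WT chow, 80.2, 79.9 and 109.9 in WT CDAHFD, 111.3 and 106.0 in KO chow and 119.2, 115.5 and 120.1 in KO CDAHFD. The 3 groups lay below WT chow without overlap, at -1.16 (SE 0.13, edgeR adjusted p = 1.17e-05) in WT CDAHFD and -0.88 (SE 0.15, edgeR adjusted p = 0.000498) in KO chow. Nrp1, a co-receptor for VEGF, was lower in all 3 groups, by -1.82 (SE 0.20, edgeR adjusted p = 1.94e-05) in KO chow. It stood at -0.91 (SE 0.17, edgeR adjusted p = 0.000589) in WT CDAHFD and -1.16 (SE 0.17, edgeR adjusted p = 8.71e-05) in KO CDAHFD. Dll4, a Notch ligand that VEGF signalling induces in endothelium, was at 4.66, 5.54, 5.64 and 5.32 CPM in WT chow, 1.926, 2.0 and 1.879 in WT CDAHFD, 4.54 and 6.94 in KO chow and 3.15, 2.01 and 3.16 in KO CDAHFD. It fell in WT CDAHFD (-1.45, SE 0.21, edgeR adjusted p = 8.78e-05) and stood at 0.12 (SE 0.22) in KO chow. Id1, a target of BMP signalling, rose in all 3 groups, by 1.71 (SE 0.19, edgeR adjusted p = 2e-05) in KO chow. It rose by 1.09 (SE 0.17, edgeR adjusted p = 0.000215) in WT CDAHFD and 1.67 (SE 0.17, edgeR adjusted p = 5.65e-06) in KO CDAHFD. Angpt1, a Tek ligand made by stellate cells, rose by 1.69 (SE 0.20, edgeR adjusted p = 1.94e-05) and Tgfb1 by 1.66 (SE 0.20, edgeR adjusted p = 2.22e-05) in WT CDAHFD. Both rose in the other groups too. Angpt1 was at 1.30 (edgeR adjusted p = 0.000618) in KO chow and 2.54 (edgeR adjusted p = 5.46e-07) in KO CDAHFD. Tgfb1 was at 1.28 (edgeR adjusted p = 0.000632) in KO chow and 1.60 (edgeR adjusted p = 2.85e-05) in KO CDAHFD.

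**Figure D4:**
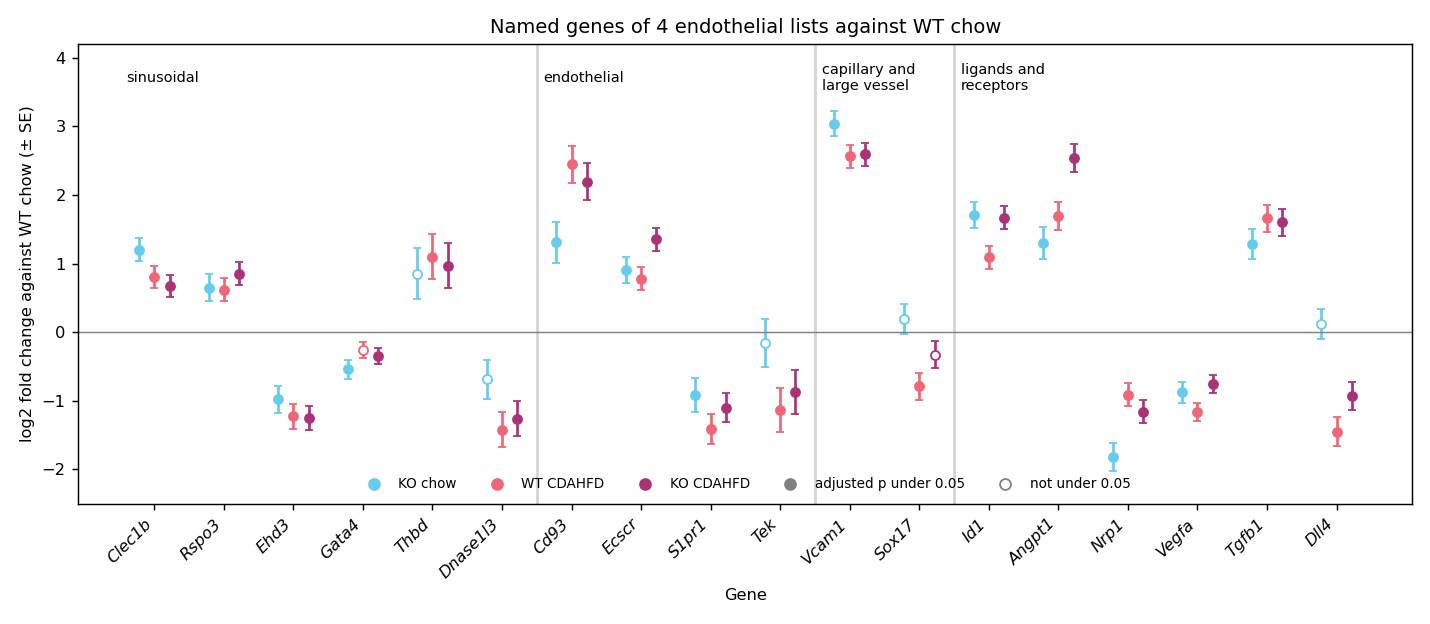
Log2 fold change against WT chow with its SE (vertical axis) of the named genes of the 4 further lists, without Sele, in the 3 other groups, filled where the edgeR adjusted p was under 0.05. Vegfa and Ehd3 are filled below 0 in all 3 groups, Vcam1 is filled between 2.56 and 3.04, and Dll4 is filled in the CDAHFD groups alone.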

How the data were processed

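Liver poly-A RNA of 12 mice was sequenced in libraries that do not keep strand. The authors aligned reads with STAR 2.7.3a to GRCm38 after FastQC 0.11.5 and deposited raw counts per Ensembl gene. The submitters' processing notes also name DESeq2, and the counting program and annotation release are not given in the sources used here. Symbols and positions came from GENCODE M21 (94.08% of the identifiers matched), and promoters from RefSeq.

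Counts of all 12 libraries were fitted in 1 model of the 4 groups with edgeR 4.0.16 (R 4.3.3, limma 3.58.1), with TMM scaling, filterByExpr and the quasi-likelihood test. The SE is the log2 fold change over the square root of F, and p was adjusted by Benjamini-Hochberg over 17358 genes. Libraries held at least 29906785 counts. The fit was tested on simulated data. Alternatives were RLE or library size scaling, no filter, a replicate block, only the 2 groups compared, DESeq2 1.42.0 and each library left out. A clock gene score as covariate (mean log2 CPM of Dbp, Tef, Per3 and Nr1d2 minus that of Arntl and Npas2) and leaving out the 4 libraries with high Dbp were chosen after seeing the data. From each of 4 gene lists the text names the 2 called genes with the largest rise and the 2 with the largest fall in KO chow and in WT CDAHFD against WT chow, where the mean over the libraries reached 50 counts. The members, gene lists and cell type markers were chosen with earlier results of these data known. Figures were drawn with matplotlib 3.10.9 and tables made with pandas 2.3.3 in Python 3.11.15.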

Additional observations from a re-analysis of the deposited data

Results flagged for a closer look

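Lyve1 differed between the genotypes in its response to diet by the interaction term of the edgeR fit, at -1.15 on the log2 scale (SE 0.36, edgeR adjusted p = 0.0362). Its mean was higher in KO chow than in WT chow, while the CDAHFD groups overlapped WT chow. The call was lost without WT chow replicates 3 or 4, WT CDAHFD replicates 1 or 2, KO chow replicate 2 or KO CDAHFD replicates 1 or 2, and without the 4 libraries with high Dbp, where it was -0.86 (edgeR adjusted p = 0.152). Lower interactions were also called for 2 of 6 Kupffer cell, 8 of 8 monocyte and macrophage and 1 of 6 lymphatic markers. The same held for 4 of 8 stellate, 3 of 9 leukocyte, 2 of 5 platelet and 2 of 5 cholangiocyte markers. Of 8 hepatocyte markers 0 had a lower and 3 a higher interaction. Over all genes 2513 of 17358 had a lower one. The part of these cell types in the Lyve1 level was not tested.

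In WT chow, the one group of 4 libraries, replicate 1 lay far from the other 3 by Dixon's test in 6 of 58 values checked. The values share genes, and the single marker genes among them were picked by no stated rule, so the count is not set against a chance rate. None of the 6 was the level of a member or of a named gene of the 4 further lists. Acta2 was at 31.9 CPM there against 1.27 to 1.48, Ccl21a at 4.89 against 0.184 to 0.881, the lymphatic gene Mmrn1 at 2.17 against 0.321 to 0.504 and the platelet gene Gp9 at 0.388 against 0 to 0.0315. The sum of the hepatocyte markers was 82900 CPM against 98680 to 101800, and the log2 ratio of Kdr to Cdh5 was 0.65 against 0.87 to 0.90. Without this library Cdh5 in KO CDAHFD was no longer called (-0.51, edgeR adjusted p = 0.103), and the other calls of members against WT chow were kept.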

How the results depend on the processing

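KO chow has 2 libraries and WT CDAHFD and KO CDAHFD have 3 each, so 1 library can decide a call, and Lyve1 and Vwf have the lowest CPM of the members. Scaling mattered most. With library size as the only scaling, log2 fold changes against WT chow turned to 0.13 (Stab2), 0.07 (Clec4g), 0.29 (Oit3) and 0.13 (Kdr) in KO chow, 0.42 (Stab2) and 0.01 (Pecam1) in WT CDAHFD, and 0.55 (Stab2), 0.26 (Pecam1) and 0.03 (Cdh5) in KO CDAHFD. It called 2 members in KO chow against WT chow, 3 in WT CDAHFD against WT chow (3 higher, 0 lower) and 0 in KO chow against WT CDAHFD, where over all genes 7037 rose and 1149 fell, 9092 rose and 1170 fell, and 242 rose and 1025 fell.

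Without the 4 libraries with high Dbp, values turned to -0.04 (Stab1), -0.17 (Cdh5), -0.02 (Eng) and -0.16 (Vwf) in KO chow, 0.03 (Stab2) in WT CDAHFD, and -0.2 (Lyve1) and -0.23 (Vwf) in KO CDAHFD, and 2 members were called in KO chow against WT CDAHFD and 0 in the interaction. With the clock gene score as a covariate, Stab2 was 0.03 in WT CDAHFD, 2 members were called in KO CDAHFD against KO chow and 4 in KO chow against WT CDAHFD. Over all 17358 genes, 1753 and 2513 were called in these 2 comparisons with the covariate, against 1075 and 1063 in the main fit. Both alternatives were chosen after seeing the data, and the cause was not tested.

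In KO CDAHFD against KO chow 2 members were called with no filter and 2 with DESeq2, where 1340 of 30104 and 1903 of 17358 genes were called. In KO chow against WT CDAHFD 3 were called with no filter, 3 with only the 2 groups compared in the fit and 3 with DESeq2. Over all genes these settings called 1397, 1992 and 2074 there. Cdh5 in KO CDAHFD against WT chow was past the threshold no longer with RLE scaling (-0.54, edgeR adjusted p = 0.0605) or only the 2 groups (-0.54, edgeR adjusted p = 0.0566). The difference from WT chow in the sinusoidal to endothelial log2 ratio was, with Clec4g left out, 0.61 for WT CDAHFD and 0.06 for KO chow, and with Eng left out 0.68 for WT CDAHFD and 0.5 for KO CDAHFD. With the longest transcript as the length, 5 members changed rank in WT chow.

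The replicate numbers did not pair the samples: over 15 pairs with the same number r ran from -0.242 to 0.266, with 3 over 0.1. With a replicate block 0 members were called in KO chow against WT chow (Lyve1 0.69, edgeR adjusted p = 0.0712), 3 in KO chow against WT CDAHFD and 0 in the interaction (Lyve1 -0.95, edgeR adjusted p = 0.101), and Stab1 in KO CDAHFD was 0.46 (edgeR adjusted p = 0.0555). Of all 17358 genes the block fit called 5433 in KO chow against WT chow, 731 in KO chow against WT CDAHFD and 3137 in the interaction.

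Leaving out 1 library at a time gave, against WT chow, 4 to 6 members for WT CDAHFD, 3 to 5 for KO CDAHFD and 0 to 1 for KO chow, and 0 to 2 in KO CDAHFD against KO chow, 0 to 3 in KO chow against WT CDAHFD and 0 to 1 in the interaction. Values that changed sign ran, in KO chow, from -0.09 to 0.3 (Stab1), -0.83 to 0.15 (Stab2), -0.48 to 0.18 (Oit3), -0.17 to 0.64 (Cdh5), -0.71 to 0.09 (Kdr), -0.05 to 0.21 (Eng) and -0.15 to 0.28 (Vwf). In WT CDAHFD Stab2 ran from -0.21 to 0.07, and in KO CDAHFD Stab2 from -0.28 to 0.15 and Vwf from -0.08 to 1.08. The ratio difference ran from 0.39 to 0.49 for WT CDAHFD, 0.21 to 0.34 for KO CDAHFD and -0.07 to 0.02 for KO chow.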
